A study of Homo sapiens with 5 samples.

Results

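The genes described here are the RAB small GTPases of COLO 320DM, a human colorectal adenocarcinoma cell line. Members were chosen by symbol alone, as protein-coding genes named RAB followed by digits and at most 1 letter. Of 60651 genes in the deposited tables, 64 symbols matched, and 63 of these were protein-coding, the other (RAB1C) being annotated as a processed pseudogene. The family was proposed after differences between the siRNA groups of these libraries had been seen, so the fold changes and calls below describe its members and support nothing about them. In all, 48 members had enough reads to be tested, and 15 did not.

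RAB proteins are molecular switches of membrane traffic. In the GTP-bound state, reached with the help of an exchange factor, they sit on a membrane through prenyl groups and recruit effectors such as tethers, motor adaptors and sorting complexes. A GTPase-activating protein returns them to the GDP-bound state, in which the GDP dissociation inhibitor takes them off the membrane. Each organelle of the secretory and endocytic routes carries its own set of RABs, and in gut epithelium these proteins serve secretion, brush border delivery and receptor recycling.

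The study asks how the deubiquitinase USP17 acts in colorectal cancer, and poly(A) RNA was sequenced from cells that had received an siRNA. A library each was labelled siIDT, sino4 and siSMPLT, and these 3 form the USP17 siRNA group. The other 2, siL2 and siNT, form the control siRNA group. The series names the non-silencing controls, and the USP17 group was assigned by elimination. Doses and times after transfection are not given in these sources. The labels do not say whether an siRNA was a single duplex or a pool. With 1 library for each label, and nothing in the labels on separate cultures, p-values reflect no more than the spread among the 5 libraries, possibly technical. The targeted gene could not be checked, since the 26 USP17L coding genes held 0 reads in these libraries.

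Reads in genes ranged from 31704821 to 36276143 per library, so that 3 reads, the most that a count of 0 allows, equal 0.0827 to 0.0946 CPM (counting error only). CPM means counts per 1e6 of the reads in genes, on the gene's own strand and scaled by TMM. No pair of libraries agreed within sampling noise. The closest, sino4 and siSMPLT, had a chi-square of 6.02 per degree of freedom over genes. The other pairs of USP17 siRNA libraries had 6.09 and 11.9. The controls siL2 and siNT were further apart, at 29.2, nearly as far as siNT and siSMPLT at 30.7. Pairs of a control with a USP17 siRNA library reached 51.0 (siIDT and siL2). Of the 8 colon epithelium markers 6 reached 1 CPM while CDX1 had at most 3 reads, and their summed CPM was 1810 to 1870 in the USP17 siRNA libraries and 2190 to 2270 in the controls. Reads that fell on no gene were 7.05% to 7.49% of all reads in the USP17 siRNA libraries and 6.37% to 6.58% in the controls. Endothelial markers stayed under 1 CPM, and the summed CPM of leukocyte, fibroblast and neuroendocrine markers overlapped between groups. The part of the epithelial markers and of the unassigned reads in the RAB results was not tested.

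The RAB family as a whole took a near-constant share of the reads. Its members held 0.315%, 0.307% and 0.296% of reads in genes with siIDT, sino4 and siSMPLT, and in the controls siL2 and siNT 0.307% and 0.301%. The groups overlapped in that share. By TPM, a length-scaled level that can be compared between genes, RAB1A stood highest with a mean of 252 over the 5 libraries. RAB7A followed at 222, RAB11A at 212, RAB10 at 190 and RAB2A at 116. These are the common housekeeping members of early secretion, late endosomes, recycling endosomes and surface delivery. A mean TPM of at least 1 was reached by 42 of the 63 members, and the family median was 11.7.

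In the USP17 siRNA libraries 7 RAB genes were lower than in the controls and 1 was higher, at a Benjamini-Hochberg adjusted p under 0.05 over all genes (edgeR, quasi-likelihood F test). The lower ones were RAB6B, RAB8B, RAB27A, RAB23, RAB31, RAB12 and RAB30, and the higher one was RAB22A. That is 16.7% of the 48 tested members, against 10.5% of all 16341 tested genes (5.82% lower and 4.64% higher). The median log2 fold change of the tested members was -0.08, with 28 below 0 and 20 above, against 0.01 over all tested genes. Per library, the members' median difference from the control mean was -0.013 in siIDT, -0.037 in sino4 and -0.097 in siSMPLT on the log2 scale. The family median sat close to that of all genes, and the called changes were spread over 6 chromosomes. On GRCh38 RAB6B lies at chr3:133824239-133895836 (minus strand), RAB23 at chr6:57186992-57222314 (minus) and RAB30 at chr11:82973133-83071923 (minus). RAB27A (chr15:55202966-55319113, minus) and RAB8B (chr15:63189469-63267782, plus) share a chromosome, as do RAB12 (chr18:8609437-8639382, plus) and RAB31 (chr18:9708165-9862551, plus), and RAB22A lies at chr20:58309696-58367507 (plus).

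The calls depended on single libraries. With sino4 left out, RAB8B and RAB27A were the 2 members still called, in a fit that called 0.803% of all genes. The log2 fold changes of the members lost there moved little. They were -1.01 for RAB6B (-1.08 with all libraries), -0.68 for RAB23 (-0.68) and -0.68 for RAB31 (-0.64). RAB12 had -0.56 (-0.54), RAB30 -0.42 (-0.42) and RAB22A 0.71 (0.75). Without siIDT 5 of the 8 were called, in a fit that called 2.16% of all genes (RAB12, RAB30 and RAB31 were lost). Without siSMPLT 6 were, against 6.44% of all genes (RAB12 and RAB31 were lost). With siL2 left out 12 members were called, in a fit that called 14.4% of all genes; RAB12 was lost and RAB14, RAB21, RAB27B, RAB3A and RAB3B joined. With siNT left out 13 were called against 15.5% of all genes; RAB31 was lost and RAB1B, RAB28, RAB3B, RAB4A, RAB7A and RAB9A joined. In the fits with 1 control, that library is assumed to vary like the other group. Bulk RNA cannot tell fewer cells that express a gene from less RNA per cell.

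**Figure D1:**
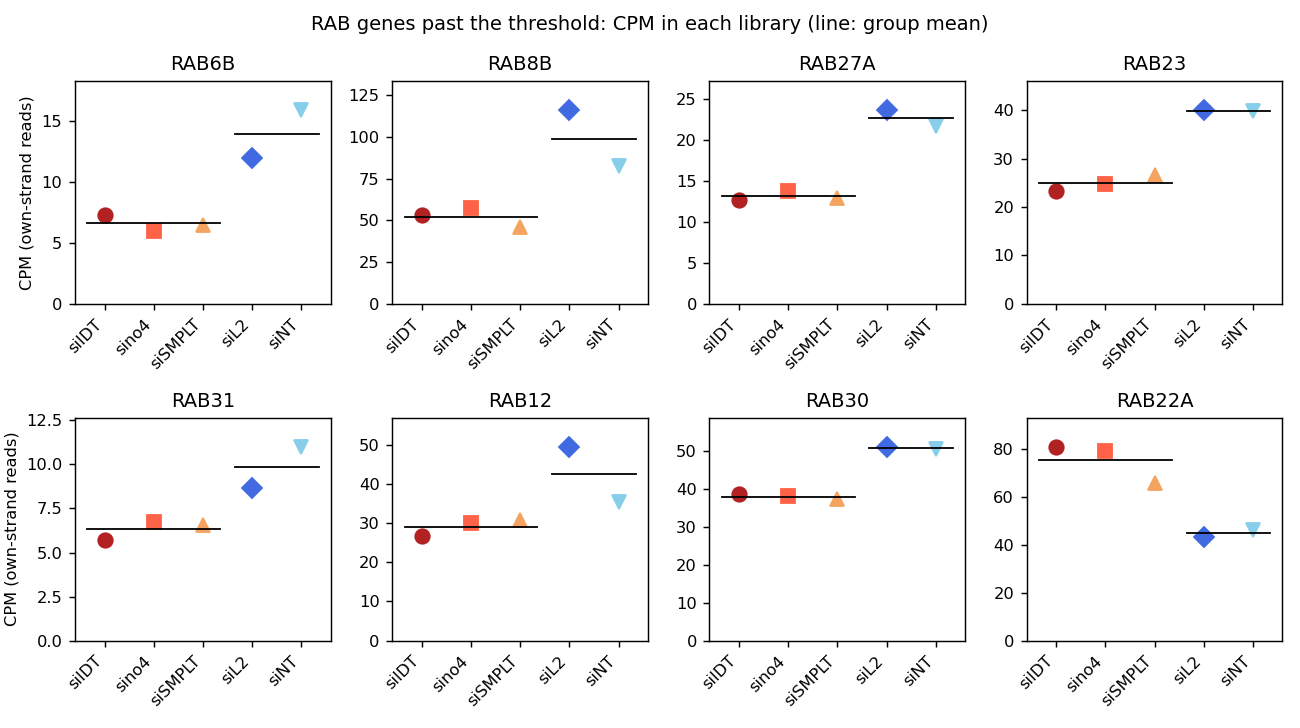
CPM of own-strand reads (vertical axes, from 0) in the 5 libraries for the 8 RAB genes past the threshold; points are single libraries and lines are group means. In 7 panels every USP17 siRNA point lies below both controls, and in the RAB22A panel every one lies above them.

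A short sequence was shared by most members that fell. ATCACTC occurred in the annotated 3' UTR of 5 of the 7 lower RAB genes (71.4%) and of 3 of the 40 uncalled ones (7.5%), searched on the transcript strand of 1 principal GENCODE 29 transcript per gene. Over all 12361 tested coding genes 7.11% held it, and 19.2% of the 899 lower ones did. Long UTRs hold more such matches, and the lower RABs had long ones, with a median of 3469 bases against 2308 for all tested RABs and 1127 for all genes. Among UTRs of 2000 to 10000 bases, 7 of 26 RAB genes (26.9%) and 15.3% of all genes carried the 7-mer. It had been picked in an earlier look at these data because its carriers fell, so an excess among lower genes was built in. These shares cannot show whether any of the excess lies outside that choice. The windows below are 29 bases of GRCh38 transcript sequence, 5′ to 3′, with the 7-mer in capitals; they are shown because most of the lower RABs carry one, and 2 uncalled carriers follow for comparison. All lie in annotated 3' UTRs, and near and far are counted from the stop codon.

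RAB6B, near site (chr3:133828597-133828625, minus strand): tcagggatcacATCACTCttaacggctgt
RAB6B, far site (chr3:133825615-133825643, minus strand): cattggttctgATCACTCctaacttgctg
RAB8B (chr15:63264373-63264401, plus strand): acttaagtgtaATCACTCttaagtaatat
RAB27A (chr15:55204108-55204136, minus strand): taggaagaaatATCACTCaccataattta
RAB23 (chr6:57189075-57189103, minus strand): taaaactgattATCACTCatcaatggctt
RAB30, near site (chr11:82974686-82974714, minus strand): ccacatttcctATCACTCcattgaaacat
RAB30, far site (chr11:82974096-82974124, minus strand): taccatttgcaATCACTCctcctcctcct
RAB18 (chr10:27540464-27540492, plus strand): actatttctttATCACTCttttgttatat
RAB9A (chrX:13710287-13710315, plus strand): aagctgactttATCACTCtcagaagaaat

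The paralogs RAB6A, RAB8A and RAB27B held no ATCACTC in their 3' UTRs and were not called. That does not set them apart, since 3 of the 40 uncalled RABs (7.5%) held it and the others lacked it. The part of the 7-mer in the calls was not tested. RAB31 and RAB12, which fell, held no ATCACTC either. RAB31 held the overlapping 7-mer TCACTCA at 2 places, the first in tcaatggaccgTCACTCAgactgagactt (chr18:9859850-9859878, plus strand). TCACTCA occurred in 3 of the 7 lower RABs (42.9%), 5 of the 40 uncalled ones (12.5%) and 10.9% of all genes. RAB22A, which rose, held it too. Among UTRs of 2000 to 10000 bases, 26.9% of RAB genes and 22.1% of all genes carried TCACTCA. In RAB23 and RAB27A it overlaps the ATCACTC match and is not a separate site. This 7-mer, too, was taken from an earlier look at these data. RAB12 held neither 7-mer in a UTR of 1120 bases. A match is a string of letters and not a measured binding site.

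Where the match lies on the principal transcript, relative to the gene's mean transcript length, differed between carriers. The deposited RSEM tables give a mean transcript length per gene and library, weighted by isoform. RAB8B had its match at base 1545, short of mean lengths of 3613 to 4044 bases, and RAB23 at base 2737, short of 3206 to 3270. The near match of RAB6B, at base 1151, also lay short of its mean lengths of 2265 to 3119, and its far match, at base 4133, lay past them. In RAB27A the match at base 2300 lay just past mean lengths of 1926 to 2271, and both RAB30 matches lay past 4084 to 4560. All 3 uncalled carriers had their match past the mean length, at base 3147 against 1644 to 1767 in RAB18, at 3575 against 1630 to 1765 in RAB2A and at 1831 against 1108 to 1203 in RAB9A. A mean over isoforms does not locate the 3' end of any transcript, and the annotation behind these lengths is not stated. A match short of or past the mean does not show whether transcripts made in these cells hold it, in lower or uncalled carriers. Whether transcripts that hold the match fell more than those without it was not tested.

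**Figure D2:**
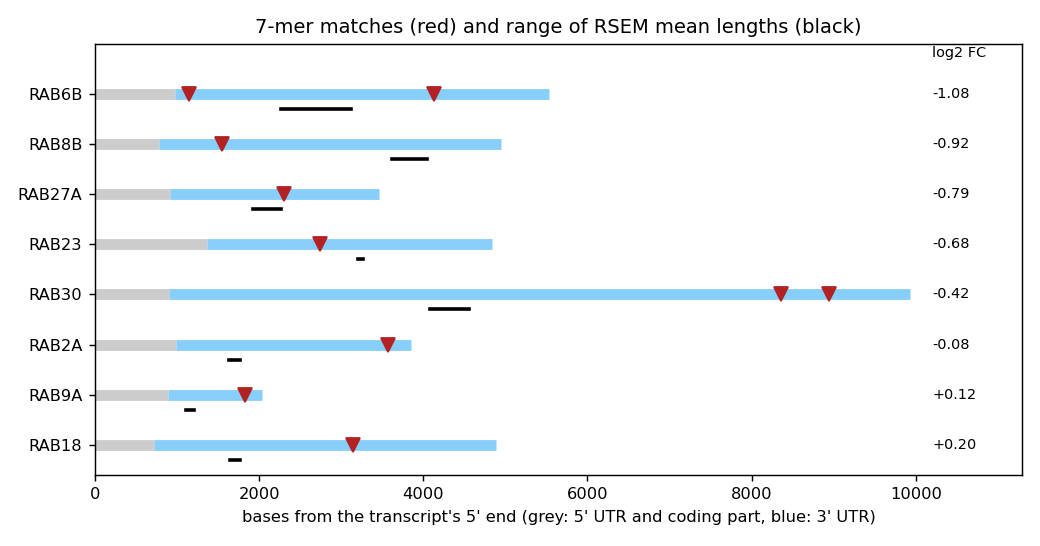
Position of ATCACTC matches (red triangles) along the principal transcript of the 8 RAB carriers, in bases from the 5′ end, with the 3' UTR in blue and the range of RSEM mean lengths over the 5 libraries as black bars; log2 fold changes stand at the right. The matches of RAB8B and RAB23 and the near match of RAB6B lie short of the black bar. Those of RAB27A and RAB30 and the far match of RAB6B, in lower genes too, lie past it. So do those of the uncalled RAB2A, RAB9A and RAB18. The bars are means over isoforms and do not mark where transcripts end.

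Among the 16 RABs of the endoplasmic reticulum and Golgi, 12 were tested, of which 2 fell and none rose. RAB6B is the brain-enriched paralog of RAB6A, which directs Golgi to endoplasmic reticulum and exocytic traffic. RAB6B CPM was 7.31, 6.01 and 6.47 with siIDT, sino4 and siSMPLT, against 12 and 15.9 with siL2 and siNT. Both controls lay above every USP17 siRNA library. The log2 fold change was -1.08 ± 0.15 (SE), to 0.474 of the control level, with an edgeR adjusted p of 0.00833. It was the steepest fall among the called members; without sino4 its adjusted p was 0.0549.

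RAB30 is a Golgi RAB tied to Golgi integrity and to autophagy of bacteria. Its CPM was 38.5, 38.1 and 37.2 with USP17 siRNA and 51.0 and 50.4 in siL2 and siNT, so libraries within each group nearly coincided. It fell by 0.42 ± 0.08 on the log2 scale, the smallest called difference (edgeR adjusted p 0.0163). RAB6A itself, RAB1A and RAB2A were the members of this group with the highest CPM, and none was called. RAB6A CPM was 179, 167 and 147 against 147 and 174, with a log2 fold change of 0.03 ± 0.11. RAB1A, which acts between the endoplasmic reticulum and the Golgi, had 286, 288 and 269 against 317 and 274 (log2 fold change -0.07 ± 0.08), and RAB2A had 125, 127 and 120 against 127 and 136 (-0.08 ± 0.07). In RAB6A and RAB1A the groups overlapped, and the sign of the estimate turned when siL2 was left out (-0.086 and 0.036). The other 7 tested members (RAB1B, RAB2B, RAB18, RAB33A, RAB33B, RAB36 and RAB6D) had log2 fold changes from -0.88 to 0.68 with none called, and the extremes, RAB36 and RAB6D, had about 1 CPM or less in every library.

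The 15 RABs of early and recycling endosomes gave 12 tested members, of which RAB22A rose and RAB31 fell. Both belong to the RAB5 branch and are close paralogs: RAB22A acts at early endosomes and in recycling of cargo taken up without clathrin, and RAB31 (also called RAB22B) acts between the Golgi and endosomes. RAB22A CPM was 81.0, 79.3 and 65.7 in siIDT, sino4 and siSMPLT and 43.5 and 46.2 in siL2 and siNT. Every USP17 siRNA library lay above both controls, siSMPLT least so. The log2 fold change was 0.75 ± 0.11, or 1.68-fold, with an edgeR adjusted p of 0.00835 that became 0.0539 without sino4.

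RAB31 moved the other way. Its CPM was 5.69, 6.72 and 6.57 against 8.67 and 11, all USP17 siRNA libraries being below both controls. It fell by 0.64 ± 0.15 on the log2 scale with an edgeR adjusted p of 0.0318. RAB31 made up 14.9%, 16.9% and 17.9% of the summed TPM of the pair in siIDT, sino4 and siSMPLT, and 30.8% and 40.2% in siL2 and siNT. The share did not overlap between the groups, which was also so in pairs with no called member: shares were free of overlap in 6 of the 10 paralog sets compared, RAB1A with RAB1B, RAB11A with RAB11B and RAB40B with RAB40C among them.

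RAB14, RAB11A and RAB5B had the highest CPM among the endosomal members that were not called. RAB14, which links endosomes and the trans-Golgi, came nearest to the threshold from above. Its CPM was 261, 262 and 253 against 222 and 218, with no overlap, a log2 fold change of 0.24 ± 0.06 and an edgeR adjusted p of 0.0517. RAB11A, the recycling endosome RAB, had 179, 172 and 156 against 156 and 162 (0.09 ± 0.08). RAB5B, of early endosome fusion, had 145, 138 and 148 against 149 and 130 (0.04 ± 0.08), and its sign turned to -0.052 without siNT. Of the other endosomal members tested, RAB4A, RAB5A, RAB5C, RAB11B, RAB15, RAB21 and RAB35 had log2 fold changes from -0.10 to 0.25 and none was called.

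Late endosomes, lysosomes and autophagy hold 9 members, and of the 6 tested RAB12 fell and none rose. RAB12 steers transferrin receptor from recycling endosomes to lysosomes and is a substrate of the kinase LRRK2. It had 26.6, 30.0 and 30.8 CPM with USP17 siRNA and 49.5 and 35.4 in siL2 and siNT. The controls differed more from each other than siNT did from siSMPLT. The log2 fold change was -0.54 ± 0.14 and the edgeR adjusted p 0.0454, the weakest of the called members, and 6 of 13 alternative analyses ended the call, limma-voom and RSEM expected counts among them.

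RAB7A, the main RAB of late endosomes and lysosomes, was just short of the threshold. Its CPM was 286, 305 and 305 against 354 and 348, without overlap, and its log2 fold change of -0.23 ± 0.07 had an edgeR adjusted p of 0.0586. RAB38, of lysosome-related organelles such as melanosomes, had 67.7, 61.4 and 54.2 against 67.0 and 58.2. RAB29, of the trans-Golgi and lysosomes, had 57.0, 48.7 and 49.6 against 54.4 and 53.5. The groups overlapped in both, with log2 fold changes of -0.03 ± 0.11 and -0.06 ± 0.09. RAB24, of autophagy, was not called either (-0.23 ± 0.17).

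Secretory vesicles and delivery to the cell surface are served by 12 members, and of the 11 tested 2 fell and none rose. RAB8B, paralog of the RAB8A that carries cargo to the plasma membrane and cilium, had 53.5, 57.5 and 46.0 CPM against 116 and 82.4. Every USP17 siRNA library was below both controls, which themselves differed. The log2 fold change was -0.92 ± 0.15, to 0.528 of the control level, with an edgeR adjusted p of 0.0115. RAB8A had 66.2, 68.1 and 65.5 CPM against 57.6 and 65.8, a log2 fold change of 0.11 ± 0.08 that was not called. RAB8B accordingly made up 25.2%, 25.6% and 24.2% of their summed TPM in siIDT, sino4 and siSMPLT and 46.8% and 37.2% in siL2 and siNT.

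RAB27A docks secretory granules and exosome-bearing endosomes at the plasma membrane. RAB27A CPM was 12.6, 13.7 and 12.9 with USP17 siRNA and 23.6 and 21.7 in siL2 and siNT, tight within each group. It fell by 0.79 ± 0.10 on the log2 scale and had the smallest edgeR adjusted p of the family, 0.00505. The call held in all 13 alternatives, with edgeR, DESeq2 or limma-voom adjusted p of at most 0.0411, and so did that of RAB8B, with at most 0.0498. The looser threshold of 0.10 is among the 13, for RAB12 too, and cannot end a call made at 0.05. RAB27B, the paralog in the same secretory step, had 31.8, 27.3 and 30.2 against 33.3 and 40.8, with a log2 fold change of -0.32 ± 0.11 and an edgeR adjusted p of 0.110. The RAB27B share of the pair's summed TPM overlapped between groups, at 44.1%, 37.6% and 48.4% against 35.9% and 46.7%.

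RAB10, of surface delivery and basolateral sorting, was the most abundant secretory member. It had 344, 332 and 306 CPM against 288 and 302, a log2 fold change of 0.15 ± 0.07 that was not called. RAB3A, RAB3C, RAB3D, RAB13 and RAB26 had log2 fold changes from -0.42 to 0.11 with none called. RAB3B is treated with the controls below.

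**Figure D3:**
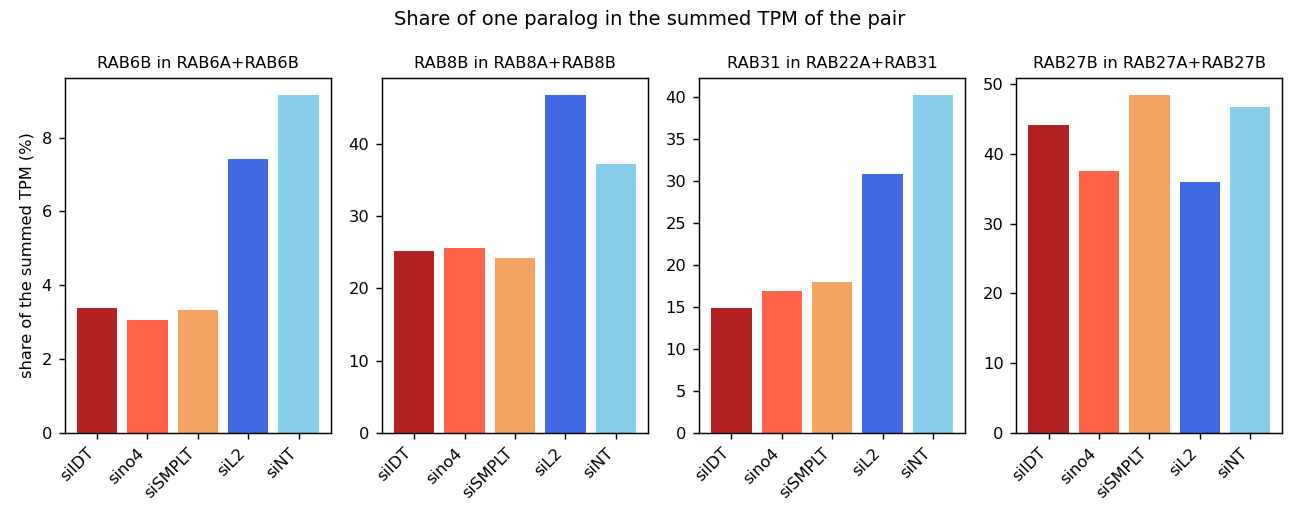
Share of 1 paralog in the summed TPM of its pair (bars, percent, from 0) in each of the 5 libraries. The bars of RAB6B, RAB8B and RAB31 are lower in all USP17 siRNA libraries than in both controls, while those of RAB27B overlap. TPM is scaled by the RSEM mean length, which for RAB6B was longer in the USP17 siRNA libraries.

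In the pair of RAB6 paralogs, RAB6B made up 3.39%, 3.06% and 3.32% of the summed TPM in siIDT, sino4 and siSMPLT and 7.43% and 9.15% in siL2 and siNT. TPM is scaled by the RSEM mean length, which for RAB6B averaged 2977.7 bases with USP17 siRNA and 2401.7 in the controls. The RAB6B share therefore carries that length difference as well as the difference in reads. The sum of the pair, 101 ± 9.49 TPM (SD, n = 3) with USP17 siRNA and 102 ± 14.1 (n = 2) in the controls, differed by less than the spread between libraries, because RAB6A supplied most of it. The sum of RAB27A and RAB27B was 17.2 ± 0.69 TPM (n = 3) against 25.6 ± 1.43 (n = 2), and the groups did not overlap there.

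The 11 members of cilia, ubiquitin ligase adaptors and less studied RABs included 7 tested ones, of which RAB23 fell and none rose. RAB23 is a negative regulator of Hedgehog signalling that acts at the primary cilium. RAB23 CPM was 23.3, 24.8 and 26.6 against 40.0 and 39.8, so that the controls nearly coincided. The log2 fold change was -0.68 ± 0.09, to 0.624 of the control level, with an edgeR adjusted p of 0.00609 (0.0539 without sino4). RAB40B, a member that recruits a cullin ubiquitin ligase, had 19.8, 18.4 and 20.6 against 23.6 and 20, and RAB39B, a neuronal RAB linked to intellectual disability, had 21.4, 18.6 and 17.9 against 17.7 and 20.2. Neither was called, with log2 fold changes of -0.15 ± 0.11 and 0.02 ± 0.12. RAB39A had an estimate as large as that of RAB23, -0.68 ± 0.42, but at 0.184, 0.558 and 0.438 CPM against 0.613 and 0.651 its error was too wide for a call.

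**Figure D4:**
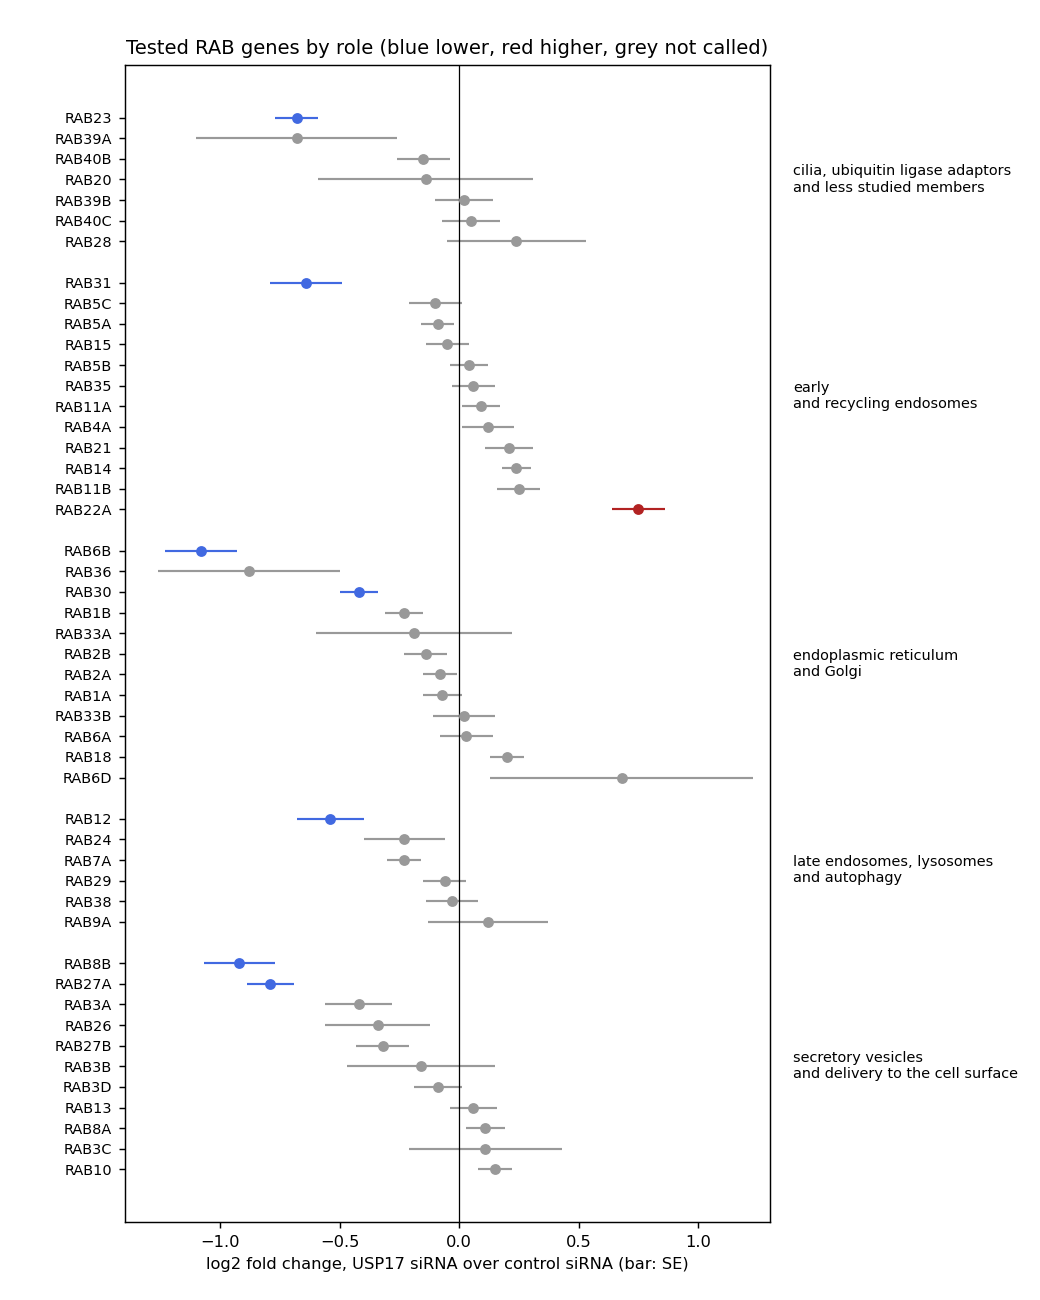
Log2 fold change (horizontal axis, USP17 siRNA over control siRNA) with its SE for the 48 tested RAB genes, grouped by role. Called members, in blue (lower) and red (higher), run from -1.08 for RAB6B to 0.75 for RAB22A, and each role group holds at least 1 of them.

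A count by library gave nearly the same genes without a test. RAB6B, RAB8B, RAB27A, RAB23, RAB31 and RAB30 lay at least 0.32 on the log2 scale below both controls in each of the 3 USP17 siRNA libraries, which is 12.5% of tested members against 3.75% of all tested genes. RAB22A alone lay as far above (4.38% of all genes). Leaving out siL2 or siNT raised the number of members that met this rule, but a single control makes it easier to meet for any gene. The share of all genes was not counted in that case. RAB12 did not meet the rule with both controls, siNT being close to the USP17 siRNA libraries. Groups without any overlap in CPM were common, in 20 of 48 members (41.7%) and in 45.9% of all tested genes, and 12 of these members were not called.

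The control libraries differed in several RAB genes, in a share near that of all tested genes. With a prior count of 2 added to both, siNT and siL2 were at least 1.5-fold apart in 7 of 48 members (14.6%), namely RAB20, RAB28, RAB36, RAB3B, RAB3C, RAB6D and RAB9A, against 12.9% of all tested genes. Few reads stood behind RAB6D (8 in siL2 and 4 in siNT), RAB20 (10 and 24), RAB3C (28 and 17) and RAB36 (36 and 21). For these, counting error is wide. RAB33A, at 0.263 and 0.396 CPM, was 1.51-fold apart without the prior count. RAB28, a RAB of cilia and photoreceptors, had 32.7 CPM in siL2, 80.0 in siNT and 64.8, 65.1 and 69.9 with USP17 siRNA. RAB3B, of regulated exocytosis, had 4.70 in siL2, 11.6 in siNT and 6.98, 7.28 and 7.66 with USP17 siRNA. RAB9A, which acts in transport from late endosomes to the trans-Golgi, had 15 in siL2, 30.6 in siNT and 22.5, 24.8 and 27.1 with USP17 siRNA. In all 3 genes the USP17 siRNA libraries lay between the controls, and with 1 library per control siRNA the difference between controls has no replicate check.

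The choice of control set the direction for these genes. The log2 fold change of RAB28 was 0.24 ± 0.29 against both controls, -0.265 without siL2 and 1.02 without siNT. RAB9A went from 0.12 ± 0.25 to -0.302 and 0.72 in the same way, and RAB3B from -0.16 ± 0.31 to -0.66 and 0.635. RAB20, a phagosome and hypoxia-linked RAB, had 0.489, 0.558 and 0.281 CPM against 0.292 and 0.679, near the limit of detection, and its estimate of -0.14 ± 0.45 ran from -0.61 to 0.596 as single libraries were left out. For RAB20 no difference was detectable at this depth.

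A further 7-mer, GATCATC, was carried by RAB28 but not by the other members wide apart between the controls. It was likewise picked in an earlier look at these data, and occurred in the 3' UTR of RAB28, RAB39B and RAB40C, 3 of 48 tested members (6.25%), a share near the 5.49% of all tested coding genes. It is shown for RAB28, where siNT was 2.44-fold above siL2: ctccaagtcttGATCATCagccaggattt (chr4:13368198-13368226, minus strand). RAB28, RAB39B and RAB40C were among the 13 of 48 members (27.1%) for which siL2 was the lowest of the 5 libraries. That share was not counted over all genes, so nothing about the 7-mer is read from it. RAB39B and RAB40C were nonetheless only slightly lower in siL2, with siNT 1.14-fold and 1.28-fold above it. RAB3B and RAB9A, with siNT 2.46-fold and 2.03-fold above siL2, held no GATCATC.

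**Figure D5:**
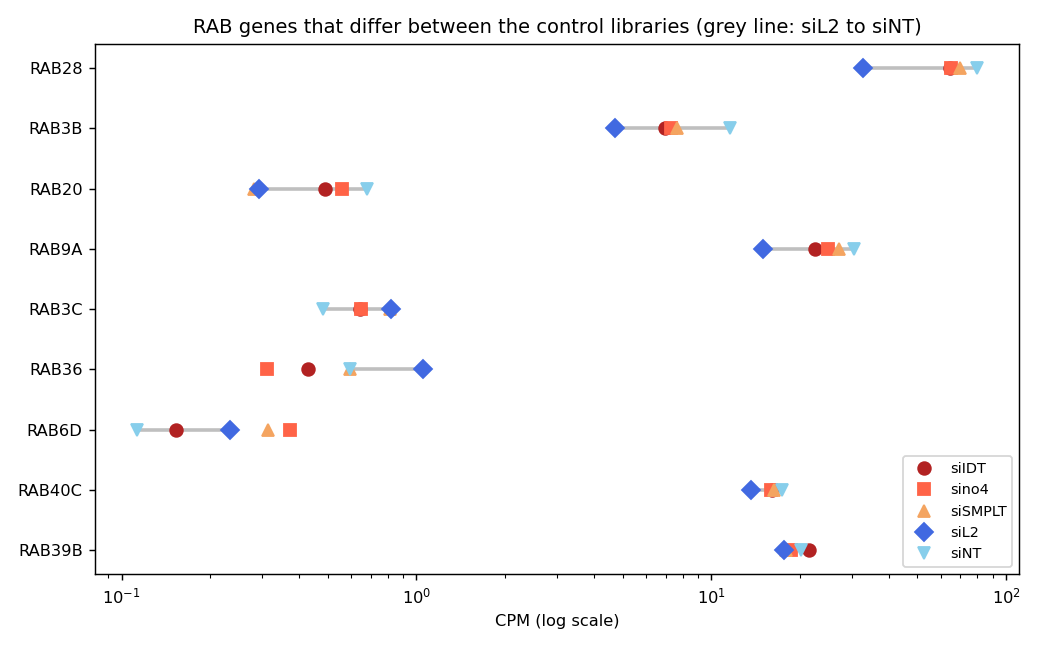
CPM (log axis) in the 5 libraries of the 7 RAB genes whose controls are at least 1.5-fold apart with the prior count of 2. The GATCATC carriers RAB40C and RAB39B are added, and grey lines join siL2 and siNT. For RAB28, RAB3B and RAB9A the USP17 siRNA points fall between the controls.

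The RSEM mean length differed between groups in 2 of the 48 tested members (4.17%), a share below the 5.52% of all tested genes. A gene was counted where this length did not overlap between groups and group means were at least 1.1-fold apart. For RAB6B it was 2968, 2846 and 3119 bases in siIDT, sino4 and siSMPLT and 2538 and 2265 in siL2 and siNT. RAB27A went the other way, from 2201 and 2271 bases in the controls to 1926, 1954 and 2166 with USP17 siRNA. Both are among the lower genes, and the lengths are estimates over isoforms that rest on few reads for RAB6B.

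Read assignment differed between the tables for some members. RSEM, which divides reads among the places they map to, assigned 14 times the own-strand unique reads to RAB4B, 5.39 times to RAB43, 4.79 times to RAB13, 4.17 times to RAB24 and 3.10 times to RAB5C. The gap was 1.77-fold for RAB6D and 1.65-fold for RAB6C, near copies of RAB6A. With RSEM expected counts RAB43, a Golgi RAB untested on read counts, was called higher. These members are uncertain, and whether reads that map to several places or overlapping genes make up the gap was not tested. Among the 15 untested members the highest count in any library was 12, 8 members had at most 3 reads everywhere, and RAB41, RAB42 and RAB44 had 0 reads in every library, which allows up to 0.0946 CPM. RAB25 and RAB17, epithelial RABs of apical recycling, were among those with at most 3 reads.

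The machinery around the RABs changed in a minority of its genes. Of 152 listed regulators, effectors and relatives 140 were tested, and 14 were lower and 7 higher, 15% in all against the 10.5% of all genes given above. Every one of these calls was lost without sino4 (0 lower and 0 higher, with 0.803% of all genes called by edgeR). An unadjusted edgeR p under 0.05 was held by 49 of the 140 with all libraries and by 32 without sino4. The share of all genes at that unadjusted level was not counted, so these numbers show no excess among the regulators. Without siIDT 3 were lower and 1 higher (2.16% of all genes), without siSMPLT 8 and 4 (6.44%), and without siNT the higher ones numbered 19 (15.5%). Among the 8 genes of prenylation and membrane recycling (escort proteins, GDP dissociation inhibitors and transferase subunits) 0 were called by edgeR, DESeq2 or limma-voom. An unadjusted edgeR p under 0.05 was held by 2 of them, again with no share of all genes to set beside it.

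Of 38 exchange factors 2 were lower and 1 higher, 7.89% against 10.5% of all genes. ANKRD27, an exchange factor for RAB21, had 121, 130 and 138 CPM against 162 and 164 (log2 fold change -0.33 ± 0.08, edgeR adjusted p 0.0321). C9orf72, whose complex acts on RABs in autophagy, had 80.5, 63.1 and 60.6 against 106 and 91.9 (-0.54 ± 0.13, edgeR adjusted p 0.0347). RIC1, which with a partner activates RAB6, rose by 0.39 ± 0.09 (87.1, 81.8 and 78.0 against 67.0 and 59.0, edgeR adjusted p 0.0321). None of the 3 overlapped between groups.

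Of 35 GTPase-activating proteins 6 were lower and 3 higher, 25.7% against 10.5% of all genes. TBC1D20, which inactivates RAB1, had 42.7, 42.3 and 43.5 CPM against 65.9 and 55.1 (log2 fold change -0.50 ± 0.09). TBC1D4, which holds RAB10 inactive until insulin signals, had 414, 399 and 371 against 498 and 589 (-0.46 ± 0.09), and TBC1D9 had 23.9, 24.2 and 25.4 against 34.7 and 32.4 (-0.46 ± 0.09). TBCK, a TBC-domain protein, was higher at 59.4, 55.1 and 50.6 against 39.2 and 37.7 (0.52 ± 0.09). Their edgeR adjusted p-values ran from 0.0158 to 0.0178, and in each the groups did not overlap.

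Effectors gave 5 lower and 2 higher of 51, or 13.7%, near the 10.5% of all genes. MYRIP, which links RAB27A to myosin motors, had 5.11, 5.64 and 6.50 CPM against 10.3 and 12, a log2 fold change of -0.96 ± 0.14 (edgeR adjusted p 0.00969). MYRIP and RAB27A were both lower in all 3 USP17 siRNA libraries. The RAB11 effectors RAB11FIP5 (21.4, 26.7 and 29.2 against 47.2 and 42.2) and RAB11FIP2 (54.6, 68.0 and 74.5 against 97.4 and 93.0) fell by 0.79 ± 0.13 and 0.54 ± 0.12, while RAB11A was not called. BICD2, the dynein adaptor that binds RAB6, rose by 0.47 ± 0.08 (130, 124 and 121 against 93.9 and 86.7). Of the 8 tested RAB-like GTPases RASEF, an atypical RAB with a calcium-binding domain, rose by 1.56 ± 0.26 (12.4, 7.96 and 6.85 against 3.30 and 2.86), and RABL6 fell by 0.44 ± 0.12 (115, 135 and 156 against 183 and 185). The edgeR adjusted p-values of these last 5 genes ran from 0.0122 to 0.0469.

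CTNNB1, the gene of beta-catenin, to which the series links USP17, was lower in the same fit at 198, 200 and 200 CPM against 355 and 326. Its log2 fold change was -0.77 ± 0.07.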

How the data were processed

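Members and gene lists were chosen with earlier results of these data known. Per the submitters' processing notes, bcl2fastq 2.20, STAR 2.7.1a and RSEM 1.3.2 were used with GRCh38. The annotation release is not stated in these sources. Counts in the deposited tables are whole reads per gene by strand, and the own-strand column was used (ratio to the opposite strand 18.7 to 19.92). The deposited RSEM tables hold the authors' expected counts, rounded here where tested, and TPM. Rows that name no gene, 22.81% to 24.44% of reads, were left out. GENCODE 29 gave coordinates and UTRs.

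Groups of 3 and 2 libraries were compared in edgeR 4.0.16 (R 4.3.3) after filterByExpr (minimum count 10, total 15) and TMM, with the two-sided quasi-likelihood F test and Benjamini-Hochberg adjustment over all tested genes. Log2 CPM had a prior count of 2. Alternatives were DESeq2 1.42.0 size factors and Wald test, limma-voom (limma 3.58.1), other filters, the deposited expected counts, unstranded counts, an adjusted p of 0.10, other folds and leaving out each library. Named were all called members, the 3 uncalled with the highest CPM per role, the 3 with the widest gap between controls, members at 0, up to 4 called genes per list with the smallest p, CTNNB1 and USP17L; other members named were chosen after their values were seen.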

Additional observations from a re-analysis of the deposited data

How the results depend on the processing

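No paired analysis was possible because the labels give no replicate numbers. Leaving out single libraries gave 2 to 9 lower and 0 to 5 higher RAB genes, 0 to 19 lower and 0 to 19 higher regulators, 8 to 12 RAB genes beyond both controls, and a median RAB log2 fold change of -0.10 to -0.043. RAB genes called higher numbered 2 with the CPM filter, the DESeq2 Wald test, RSEM expected counts, limma-voom and an adjusted p of 0.10. The added gene was RAB43 with RSEM and RAB14 in the others. Of all genes, the CPM filter called 13.0% in either direction, RSEM expected counts 9.31% and limma-voom 10.3%. Higher regulators numbered 13 with the Wald test and 15 at 0.10. The shares of all genes called there, in either direction, were 14.3% and 18.8%. With a fold of 1.5, 2 RAB genes lay beyond both controls, and at a log2 difference of 0.32, 16 differed between the controls. The shares of all genes were not counted at these settings, nor for genes beyond both controls with a library left out. Signs turned when a library was left out in RAB28 (-0.265 to 1.02), RAB9A (-0.302 to 0.72), RAB3B (-0.66 to 0.635), RAB20 (-0.61 to 0.596), RAB39B (-0.069 to 0.12), RAB5B (-0.052 to 0.14), RAB1A (-0.17 to 0.036), RAB6A (-0.086 to 0.16) and RAB38 (-0.13 to 0.07); the cause was not tested. Searching any basic coding transcript, an alternative chosen after seeing the data like the UTR length class, gave the same 8 RAB carriers of ATCACTC. Depth limits members under 1 CPM, such as RAB20 and RAB36.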

Other observations

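Promoters were searched on both strands for 3 motifs, in RefSeq sequences (GRCh38.p14) from 250 bases before to 50 after the start, which matched 50 of the 63 RAB genes. The letters ATCAAAG, the core of TCF/LEF motifs, stood in the promoters of RAB27B and RAB3B, and in 2.16% of 10238 tested coding genes. TCACGTGA, an E-box of lysosomal genes, stood in those of RAB21 and RAB5A (2.28% of all), and TGACGTGG, found in promoters of the unfolded protein response, in no RAB promoter searched (1.16% of all). None of the 7 called RAB genes with a promoter in the table held any of the 3, which says only that these letters are not in this window.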
